A study of Mus musculus with 16 samples.

Results

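Mrc1, Cd163, Lyve1, Pf4, F13a1 and Cbr2 are 6 genes commonly used to mark border-associated macrophages, and all 6 were found by symbol among the 55385 genes listed in the count table of CD11b-bead-sorted cells from mouse brain. The study compared 4 genotypes of female mice at 20 weeks of age with 4 libraries each: WT (controls negative for 5xFAD), Card9-/- (germline deletion of Card9, an adaptor in immune receptor signalling), 5xFAD, and Card9-/-5xFAD. 5xFAD mice carry human transgenes with familial Alzheimer's disease mutations, expressed in neurons, and accumulate amyloid-β early. No animal received a drug or other treatment. In every group the mice were perfused with PBS, the meninges and choroid plexus were taken off the brain, and the rest was digested and passed over a column with CD11b beads. CD11b is carried by microglia, by macrophages of the brain's borders and by blood myeloid cells, so the sort alone does not separate them. The study checked the isolation by flow cytometry and reports that most cells were high in CD11b and intermediate in CD45, its gate for microglia. The labels number the libraries within each genotype without tying each to an animal, so p-values measure the spread between these libraries, which may be partly technical.

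Border-associated macrophages are the resident macrophages of the meninges, the choroid plexus and the spaces around brain vessels. They share an origin from early embryonic progenitors with microglia but keep a different program, rich in scavenger and endocytic receptors. MRC1 (CD206, a mannose receptor), CD163 (the receptor for haemoglobin bound to haptoglobin) and LYVE1 (a hyaluronan receptor) sit at the cell surface. PF4 (CXCL4) is a chemokine also stored in platelets, F13A1 is the catalytic A subunit of coagulation factor XIII, and CBR2 is a carbonyl reductase.

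The 6 genes lie on 6 chromosomes of the mouse genome (mm10, GENCODE M21 gene models). Mrc1 spans chr2:14229392-14332057 on the plus strand, Cd163 chr6:124304656-124330527 on the plus strand, and Lyve1 chr7:110850607-110863239 on the minus strand. Pf4 spans chr5:90772435-90773383 on the plus strand, F13a1 chr13:36867178-37050244 on the minus strand, and Cbr2 chr11:120729489-120732114 on the minus strand. Their exons cover 6.371 kb for Mrc1, 5.461 kb for Cd163, 2.919 kb for Lyve1, 0.721 kb for Pf4, 6.739 kb for F13a1 and 1.327 kb for Cbr2, so Pf4 and Cbr2 are the short members of the set. Mrc1 lies on the same chromosome as Card9, with 12 Mb between the genes. F13a1 shares bases in 2 exons with the antisense gene Gm30489, and whether the counting used strand is not given in the sources used here.

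Upstream sequences are shown for 3 genes whose levels fell together with the transgenes (Mrc1, F13a1 and Cd163) and for Pf4, whose level did not pass the test in that comparison. They end before the first exon base of both the RefSeq and the GENCODE gene model, whichever is further upstream, and come from the RefSeq promoter table for GRCm38.p6, which is the mm10 assembly. Capitals mark GAGGAA, the core letters bound by PU.1, the macrophage lineage factor, read on either strand (TTCCTC where it lies on the minus strand of the gene).

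Mrc1, chr2:14229164-14229391, plus strand: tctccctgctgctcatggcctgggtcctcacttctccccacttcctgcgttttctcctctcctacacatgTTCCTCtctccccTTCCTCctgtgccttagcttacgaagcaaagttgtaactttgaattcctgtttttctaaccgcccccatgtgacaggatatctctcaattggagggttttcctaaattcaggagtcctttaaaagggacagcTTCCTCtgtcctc

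F13a1, chr13:37050245-37050494, minus strand: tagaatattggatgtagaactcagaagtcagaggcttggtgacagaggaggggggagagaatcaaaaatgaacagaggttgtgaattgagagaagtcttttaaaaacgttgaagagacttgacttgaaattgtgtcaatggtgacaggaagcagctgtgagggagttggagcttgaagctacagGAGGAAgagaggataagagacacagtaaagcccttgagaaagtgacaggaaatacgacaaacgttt

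Cd163, chr6:124304401-124304635, plus strand: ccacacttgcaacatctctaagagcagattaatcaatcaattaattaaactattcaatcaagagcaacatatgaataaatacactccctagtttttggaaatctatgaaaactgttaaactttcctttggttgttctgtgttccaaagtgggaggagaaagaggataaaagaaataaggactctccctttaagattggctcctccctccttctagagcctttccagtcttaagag

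Pf4, chr5:90772185-90772434, plus strand: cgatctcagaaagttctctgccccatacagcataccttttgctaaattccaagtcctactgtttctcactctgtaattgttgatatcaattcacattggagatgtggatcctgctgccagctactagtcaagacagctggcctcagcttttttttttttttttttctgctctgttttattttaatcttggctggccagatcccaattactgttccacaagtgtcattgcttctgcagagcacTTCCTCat

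The Mrc1 window of 228 bases held GAGGAA 3 times, the F13a1 and Pf4 windows of 250 bases held it 1 time each, and the Cd163 window of 235 bases held it 0 times. Across 32851 RefSeq promoters, 23.3% held GAGGAA on either strand in the 250 bases before the start. TGCTGA, part of the recognition element of MAF, which is a macrophage factor, was in none of these windows, and 16.1% of all promoters held it. The matches are a description of the letters and say nothing of binding.

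The libraries held 2970148 to 19333325 counts (median 7944265), with 18695 to 23757 genes detected. Values are CPM, a gene's counts per 1000000 counts of its library, on library sizes scaled by the trimmed mean of M-values (TMM), and 14513 genes, all 6 markers among them, had enough counts to be tested. The 13 microglia markers were high throughout, summing to 17864 to 45998 CPM, against 370 to 1695 CPM for the 6 border macrophage genes. In 4 libraries, 1 per genotype, the microglia sum was 17864 to 21589 CPM (WT 1, Card9-/- 4, 5xFAD 1 and Card9-/-5xFAD 4), and in the other 12 it was 27140 or more. Choroid plexus and ependymal markers summed to 1131 to 2517 CPM in those 4 libraries and to 4.84 to 878 CPM in the other 12, although the choroid plexus had been taken off. Results are therefore given with all 16 libraries and, where a call or direction changed, with the other 12. Libraries also differed in how levels depended on transcript length: the slope of log2 CPM on log2 exon length, relative to the mean of all libraries, ran from -0.224 to 0.285. Card9 itself averaged 36.9 ± 16.3 CPM (SD, n = 4) in WT, 29.1 ± 8.36 in Card9-/-, 27.7 ± 8.28 in 5xFAD and 20.2 ± 11.8 in Card9-/-5xFAD. Its log2 fold change with the Card9-/- label, averaged over both transgene states, was -0.39 ± 0.32 (SE; edgeR's quasi-likelihood test, adjusted p = 0.678), and the part of the gene that the allele lacks is not given in the sources used here, so these counts do not check that label.

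The 4 genes that passed the test were lower in mice with the 5xFAD transgenes. Averaged over both Card9 genotypes, Mrc1, Cd163, Lyve1 and F13a1 were 2.36-fold, 2.46-fold, 2.05-fold and 2.57-fold lower, while Pf4 and Cbr2 did not pass. No member passed in any comparison between Card9 genotypes. Each CPM is a share of the counts of a bulk library. Fewer border macrophages, less RNA per macrophage and more RNA from other sorted cells therefore cannot be told apart.

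Mrc1, the mannose receptor, measured 146, 176, 162 and 248 CPM in the 4 WT libraries and 216, 302, 290 and 225 CPM in the Card9-/- libraries. It measured 57, 85, 83.3 and 93.8 CPM in 5xFAD and 87.9, 105, 84.6 and 150 CPM in Card9-/-5xFAD. Each of the 4 5xFAD libraries lay below every WT library, and each Card9-/-5xFAD library lay below every Card9-/- library, with 1 Card9-/-5xFAD library at the level of the lowest WT library. Mrc1 had a log2 fold change of -1.20 ± 0.28 (SE) in 5xFAD against WT (adjusted p = 0.0369) and of -1.28 ± 0.28 in Card9-/-5xFAD against Card9-/- (adjusted p = 0.0313). Averaged over Card9 genotype, Mrc1 fell by 1.24 ± 0.20 (adjusted p = 0.000942, with 95% limits of -1.65 and -0.83). These and all adjusted p-values that follow come from edgeR's quasi-likelihood test with Benjamini-Hochberg adjustment over all 14513 genes, unless another test is named, and a gene is called at a false discovery rate (FDR) under 0.1.

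Cd163, the haemoglobin scavenger receptor, measured 36.8, 39.2, 36.8 and 76.3 CPM in WT and 52.7, 78, 83.7 and 33.4 CPM in Card9-/-. It measured 11.4, 15.5, 14.6 and 34.6 CPM in 5xFAD and 26.7, 30.3, 15.3 and 29.6 CPM in Card9-/-5xFAD. The transgenic libraries lay below the others within each Card9 genotype, although replicate 4 of WT and of 5xFAD each stood well above the rest of its group. Cd163 had log2 fold changes of -1.31 ± 0.40 in 5xFAD against WT (adjusted p = 0.169) and -1.29 ± 0.40 in Card9-/-5xFAD against Card9-/- (adjusted p = 0.159), neither of which passed. Averaged over Card9 genotype it passed, falling by 1.30 ± 0.28 (adjusted p = 0.0114). In the 12 libraries with higher microglia sums, a comparison chosen after seeing the data, the log2 fold change in Card9-/-5xFAD against Card9-/- was -1.54 ± 0.39 (adjusted p = 0.031). Same-numbered libraries deviated together within each Card9 genotype, and with that pairing as a block, also chosen after seeing the data, Cd163 passed in 5xFAD against WT (-1.37 ± 0.28, adjusted p = 0.0105) and in Card9-/-5xFAD against Card9-/- (-1.26 ± 0.28, adjusted p = 0.0132).

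Lyve1, the hyaluronan receptor, measured 43.7, 71.5, 60.9 and 54.2 CPM in WT and 44.8, 45.8, 43.1 and 56.3 CPM in Card9-/-. It measured 13.8, 29.6, 30.6 and 20.7 CPM in 5xFAD and 17.3, 29.1, 39.8 and 23.2 CPM in Card9-/-5xFAD. Lyve1 was the only member for which all 8 transgenic libraries (13.8 to 39.8 CPM) lay below all 8 others (43.1 to 71.5 CPM), a separation found for 0.469% of all genes tested. Lyve1 passed in 5xFAD against WT, with a log2 fold change of -1.28 ± 0.30 (adjusted p = 0.0442), and on average, with -1.04 ± 0.21 (adjusted p = 0.00783). Its log2 fold change in Card9-/-5xFAD against Card9-/- was -0.79 ± 0.30, which did not pass (adjusted p = 0.266), and with the pairing as a block it was -0.84 ± 0.22 (adjusted p = 0.0265).

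F13a1, the coagulation factor XIII subunit that tissue macrophages also make, measured 127, 207, 120 and 244 CPM in WT and 200, 299, 293 and 217 CPM in Card9-/-. It measured 45.8, 48.3, 43.9 and 115 CPM in 5xFAD and 86.2, 133, 58.6 and 145 CPM in Card9-/-5xFAD. Replicate 4 of 5xFAD stood near the lowest WT libraries, and the other 3 were at well under their level. F13a1 likewise passed in 5xFAD against WT (-1.46 ± 0.39, adjusted p = 0.0863) and on average (-1.36 ± 0.27, adjusted p = 0.00659). In Card9-/-5xFAD against Card9-/- its log2 fold change was -1.26 ± 0.39 (adjusted p = 0.152). With the replicate number as a block, that comparison gave -1.37 ± 0.32 (adjusted p = 0.0577), and with the pairs formed within each Card9 genotype it gave -1.32 ± 0.26 (adjusted p = 0.00675). In the 12 libraries it was -1.49 ± 0.40 (adjusted p = 0.0384).

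**Figure D1:**
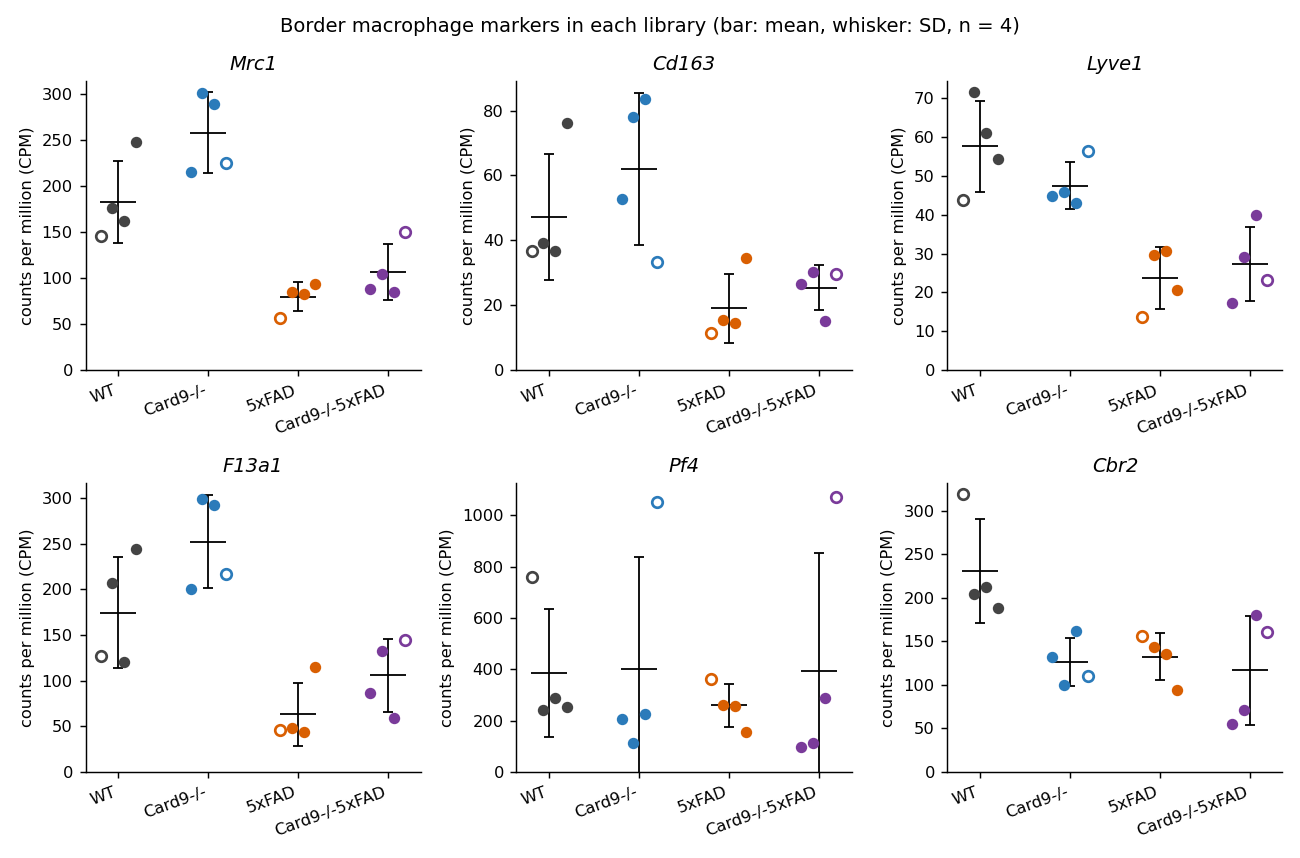
CPM of each of the 6 genes (vertical axes, linear from 0) in the 4 libraries of each genotype, with bars at the mean and whiskers for the SD; open points mark the 4 libraries with low microglia marker sums, and whiskers that would pass below 0 end at the axis. Lyve1 is the gene whose 8 transgenic libraries, at 13.8 to 39.8 CPM, all sit below the other 8, while the Pf4 panel is set by open points of up to 1070 CPM.

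Pf4, the platelet and macrophage chemokine, varied widely between libraries of the same genotype. It measured 759, 242, 287 and 252 CPM in WT and 207, 111, 225 and 1053 CPM in Card9-/-. It measured 363, 262, 255 and 157 CPM in 5xFAD and 96.8, 113, 286 and 1070 CPM in Card9-/-5xFAD. The highest library of every genotype was the one with the low microglia sum, and the 4 genotypes overlapped throughout. The averaged log2 fold change was -0.30 ± 0.54 (adjusted p = 0.775), with 95% limits of -1.43 and 0.84 that include the sizes seen for the receptors. It was -0.57 ± 0.76 in 5xFAD against WT (adjusted p = 0.834) and -0.03 ± 0.76 in Card9-/-5xFAD against Card9-/- (adjusted p = 0.993). With the length slope as a covariate, chosen after seeing the data, Pf4 fell by 1.07 ± 0.28 on average (adjusted p = 0.0173), and with 1 surrogate variable, a hidden factor estimated from all genes, it fell by 0.85 ± 0.17 (adjusted p = 0.00224).

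Cbr2, the carbonyl reductase, measured 319, 204, 213 and 188 CPM in WT and 132, 100, 162 and 110 CPM in Card9-/-. It measured 156, 144, 135 and 93.6 CPM in 5xFAD and 55, 71.4, 180 and 161 CPM in Card9-/-5xFAD. WT stood above both Card9-/- and 5xFAD without overlap, whereas the Card9-/-5xFAD libraries fell on both sides of the Card9-/- ones. Cbr2 had log2 fold changes of -0.81 ± 0.36 in 5xFAD against WT (adjusted p = 0.427), -0.11 ± 0.36 in Card9-/-5xFAD against Card9-/- (adjusted p = 0.932) and -0.46 ± 0.25 on average (adjusted p = 0.297). With the length slope as a covariate the averaged difference passed, a fall of 0.86 ± 0.21 (adjusted p = 0.0141), and with 1 surrogate variable it fell by 0.65 ± 0.22 (adjusted p = 0.0456). With the pairing as a block, Cbr2 passed in 5xFAD against WT (-0.80 ± 0.25, adjusted p = 0.0668) and on average (-0.53 ± 0.18, adjusted p = 0.038).

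Counted over the set, 3 of 6 members were called in 5xFAD against WT, all lower, against 0.524% of all genes tested that were called lower there. In Card9-/-5xFAD against Card9-/- 1 of 6 was called lower (0.482% of all genes), and with the replicate number as a block 2 of 6 were, beside 340 genes called in either direction. With the pairs formed within each Card9 genotype, 5 of 6 and 4 of 6 were called in 5xFAD against WT and in Card9-/-5xFAD against Card9-/-, beside 2322 and 2966 genes in either direction. With transgenes averaged 4 of 6 were called lower (5.73% of all genes). In the test for any difference among the 4 genotypes the same 4 genes passed (4.49% of all genes), with adjusted p of 0.00567 for Mrc1, 0.0311 for F13a1, 0.0512 for Lyve1 and 0.0648 for Cd163. The libraries of the groups did not overlap, with the transgenic group lower, for 5 of 6 members in 5xFAD against WT (3.69% of all genes) and for 4 of 6 in Card9-/-5xFAD against Card9-/- (3.48%). The median log2 fold change of all genes tested was -0.15 with transgenes averaged, and that of the 6 members was -1.14. The comparisons for each Card9 genotype have no library in common, while the averaged one uses all of them. All come from 1 fit that shares its scaling, filter and estimate of spread over all libraries, so they are not independent. The 6 members were chosen with earlier results of these data known, so the counts over the set are descriptions.

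**Figure D2:**
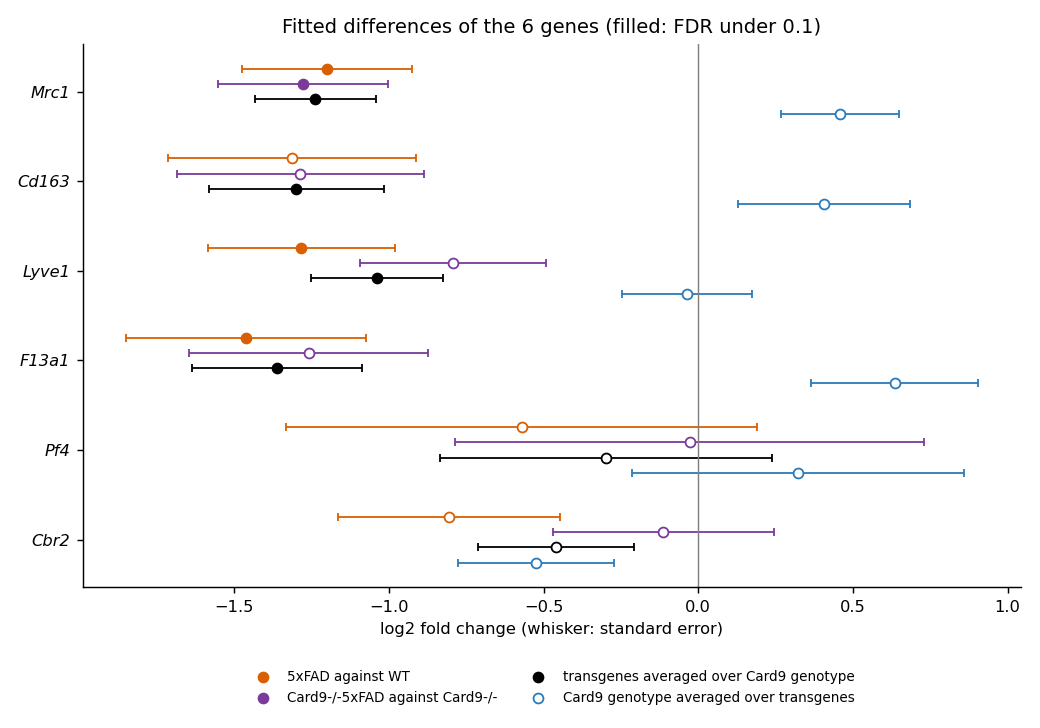
Fitted log2 fold changes (horizontal axis) of the 6 genes with standard errors as whiskers, for the transgene comparison in each Card9 genotype and averaged, and for the Card9 comparison averaged; filled points had an FDR under 0.1. Mrc1, Cd163, Lyve1 and F13a1 have averaged transgene differences from -1.36 to -1.04, and no Card9 difference is filled.

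The calls in a single Card9 genotype were not stable when 1 library was left out, although the estimates kept their sign for the members called. In 5xFAD against WT the log2 fold change ran from -1.295 to -1.016 for Mrc1 over these fits. It ran from -1.431 to -1.045 for Lyve1 and from -1.737 to -1.254 for F13a1. In 5xFAD against WT, 0 of 6 members were called without WT replicate 4 and 0 without 5xFAD replicate 1, and 1 was called without WT replicate 2 or 3 or 5xFAD replicate 2 or 3. The F13a1 call there was lost in 11 of the 16 fits, and those of Mrc1 and Lyve1 in 5 each. F13a1 was lost even without libraries outside the comparison, such as Card9-/- replicate 1, 2 or 3 (adjusted p = 0.122, 0.115 and 0.116). In Card9-/-5xFAD against Card9-/-, 0 were called without Card9-/- replicate 2 or without Card9-/-5xFAD replicate 1, 2 or 3, and 2 without Card9-/- replicate 4. The averaged transgene comparison called Mrc1, Cd163, Lyve1 and F13a1 and neither of the other members whichever of the 16 libraries was left out.

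Deletion of Card9 left no member past the threshold. Card9-/- against WT, Card9-/-5xFAD against 5xFAD and the interaction each called 0 of 6 members and 0% of all genes in edgeR's quasi-likelihood test, with 597, 366 and 78 genes and 1, 0 and 0 members at an unadjusted p under 0.05. DESeq2 called 5, 2 and 1 genes in these 3 comparisons and 0 members in each. Averaged over transgenes, 0 of 6 members and 0.0276% of all genes were called by edgeR, with 2 members at an unadjusted p under 0.05, and DESeq2 called 0 members. F13a1 then had a log2 fold change of 0.64 ± 0.27 (unadjusted p = 0.0318, adjusted p = 0.52), with 95% limits of 0.06 and 1.21. Mrc1 had 0.46 ± 0.19 (adjusted p = 0.52) and Cd163 0.41 ± 0.28 (adjusted p = 0.639). Lyve1 had -0.04 ± 0.21 (adjusted p = 0.963) and Pf4 0.32 ± 0.54 (adjusted p = 0.843), which in the 12 libraries was -0.49 ± 0.28 (adjusted p = 0.379). Cbr2 had -0.52 ± 0.25 (adjusted p = 0.55), and in Card9-/- against WT it was the 1 member whose libraries did not overlap and were lower, as for 1.60% of all genes, with a log2 fold change of -0.87 ± 0.36 that did not pass (adjusted p = 0.97).

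Whether the transgene difference itself depended on Card9 was tested as the interaction. Its log2 estimate was -0.08 ± 0.38 for Mrc1, 0.03 ± 0.56 for Cd163, 0.49 ± 0.42 for Lyve1 and 0.20 ± 0.54 for F13a1, each with an adjusted p of 1. The 95% limits were -0.89 and 0.73 for Mrc1, -1.15 and 1.2 for Cd163, -0.41 and 1.39 for Lyve1 and -0.94 and 1.34 for F13a1. For Cd163, Lyve1 and F13a1 they reached to near or past the size of the transgene difference itself. For Cbr2 the estimate was 0.69 ± 0.51 and for Pf4 0.54 ± 1.07. The Lyve1 call in WT background and its absence in Card9-/- background was therefore not shown to be a difference between the backgrounds.

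The members differed in how much of their variation followed genotype. Genotype took up 85.1% of the variance of log2 CPM for Mrc1, 74.2% for F13a1, 71.5% for Lyve1, 65.7% for Cd163, 47.8% for Cbr2 and 3.66% for Pf4, where the median of all genes tested was 20.8%. The biological coefficient of variation, the fitted spread between libraries of a genotype, was 0.304 for Mrc1, 0.319 for Lyve1, 0.378 for Cbr2, 0.397 for F13a1, 0.403 for Cd163 and 0.722 for Pf4, against a median of 0.427. Pf4 was thus the member with the widest spread within genotypes and the smallest share between them. Per kilobase of exon, the level in WT was 534 ± 347 CPM per kb for Pf4, 174 ± 45 for Cbr2, 28.8 ± 7.07 for Mrc1, 25.9 ± 9.08 for F13a1, 19.7 ± 4 for Lyve1 and 8.66 ± 3.55 for Cd163. From Mrc1 to Lyve1, neighbours in that order differed by less than the larger of their SDs.

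After genotype means were subtracted, some members varied together more than others. Over 16 libraries, r was 0.846 (rho 0.771) for Cd163 and F13a1, 0.758 (rho 0.738) for Mrc1 and F13a1, and 0.757 (rho 0.776) for Mrc1 and Cd163. Pf4 and Cbr2 formed another pair, at r = 0.642 (rho 0.785). Lyve1 had r from -0.238 to 0.189 to each of the others, and Pf4 and Cd163 ran opposite at r = -0.476 (rho -0.638). Without the 2 libraries farthest from the median of the first gene of each pair, r was 0.849 for Cd163 and F13a1, 0.76 for Mrc1 and F13a1, 0.696 for Mrc1 and Cd163, and 0.919 for Pf4 and Cbr2. The same step gave -0.563 for Cd163 and Lyve1, -0.541 for Lyve1 and F13a1, and -0.68 for Pf4 and F13a1, so the low values for Lyve1 rested on few libraries. Without 5xFAD replicate 1 alone, r for Cd163 and Lyve1 was -0.571. All pairs share the same libraries, depths and scaling, so these coefficients are descriptions of the 16 libraries.

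**Figure D3:**
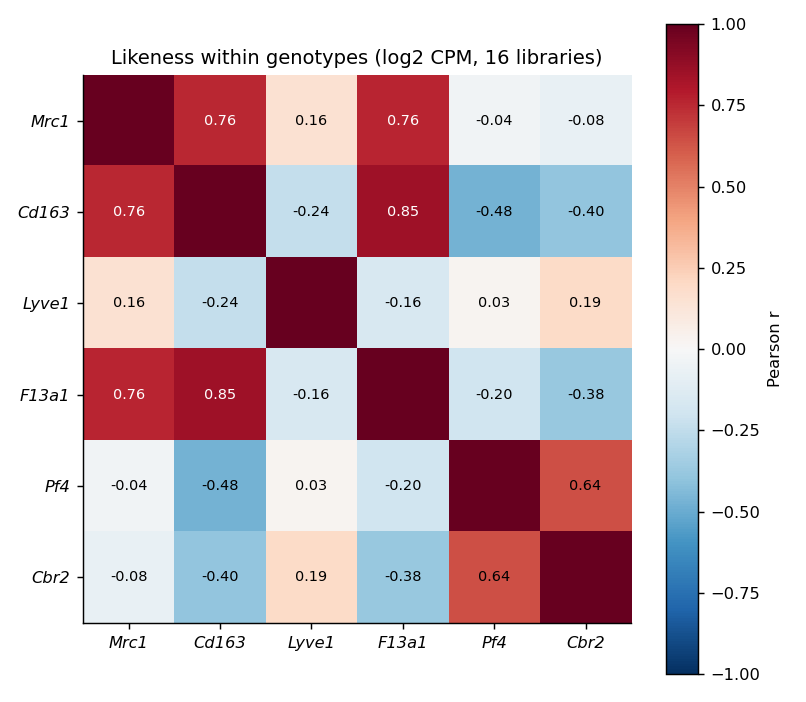
Pearson r between log2 CPM of each pair of the 6 genes over 16 libraries after subtraction of genotype means, from -1 (blue) to 1 (red). Mrc1, Cd163 and F13a1 form a block at 0.76 to 0.85, and Pf4 pairs with Cbr2 at 0.64.

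The slope on transcript length moved with several members. Within genotypes, its r with log2 CPM was -0.895 for Pf4, -0.714 for Cbr2, -0.17 for Lyve1, 0.371 for Mrc1, 0.547 for F13a1 and 0.775 for Cd163, so the short genes ran against it and the long ones with it. Pf4 levels correlated above 0.9 with those of 1377 other genes, and the median exon length of its 100 most alike genes was 1.38 kb, against 3.98 kb over all genes. For Mrc1 and Lyve1 0 genes passed 0.9. The slope was below 0 in 3 of 4 5xFAD libraries, 2 of 4 WT, 2 of 4 Card9-/-5xFAD and 1 of 4 Card9-/- libraries, so it was not evenly spread over the genotypes. Its part in the differences was not tested beyond the fit that carried it as a covariate, in which Mrc1, Cd163, Lyve1 and F13a1 were again called with averaged log2 fold changes of -1.14, -0.94, -1.11 and -1.14.

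**Figure D4:**
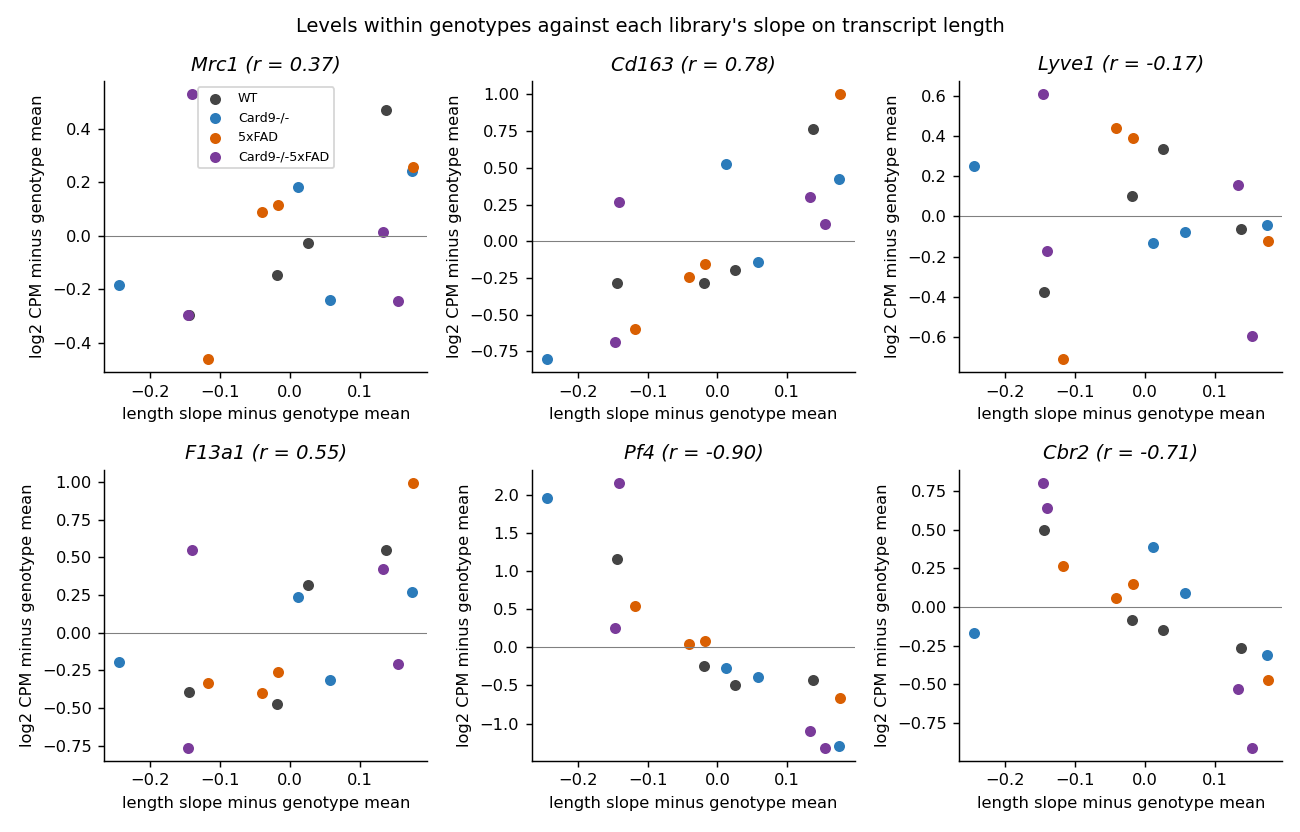
Log2 CPM of each gene (vertical axes) against the slope of log2 CPM on log2 exon length of the same library (horizontal axes), both after subtraction of the genotype mean, for 16 libraries coloured by genotype. Pf4 falls steeply along the slope (r = -0.90) and Cd163 rises with it (r = 0.78), while Lyve1 shows little relation (r = -0.17).

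The genes whose within-genotype pattern was most like each member were taken by highest r over the 16 libraries. For F13a1 this was Dab2 (r = 0.943), an endocytic adaptor that is itself on the list of border macrophage genes described next. Gprc5c (r = 0.92) and C5ar2 (r = 0.911) followed. For Mrc1 Gprc5c was first (r = 0.842), before Btg2 (r = 0.814) and Hrh1 (r = 0.808). Cd163 was most like Zfp46 (r = 0.921), Tppp (r = 0.92) and Trp53inp1 (r = 0.915), and Lyve1 most like Plekhb1 (r = 0.827), Lpxn (r = 0.825) and Cdk10 (r = 0.802). Pf4 was most like Serf2 (r = 0.993), Lst1 (r = 0.989) and Rbis (r = 0.989), and Cbr2 most like Bbs9 (r = 0.956), Emc6 (r = 0.937) and Pyurf (r = 0.931). Gprc5c was the 1 gene among the leading 3 of more than 1 member. For the mean of all 6, the 10 highest ran from 0.845 for a gene listed as X4430402I18Rik to 0.789 for Atad5, with Cep152, Gm45472, Psd3, Smpd3, Gm10575, Serping1, BC024063 and Ino80dos between them.

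A wider list of 27 genes of border macrophages, all 27 of which were tested, was lower with the transgenes for the genes that passed. The list was chosen with earlier results of these data known, so its counts are a description and not separate support. With transgenes averaged, 14 of 27 were called, all lower (5.73% of all genes). A fold change below 0 was found for 26 of 27, against 61.7% of all genes tested, and the median log2 fold change of the 27 was -0.87. Among the surface receptors, Stab1 (a scavenger receptor) fell by 1.13 ± 0.26 on the log2 scale, Cd36 (a fatty acid and lipoprotein receptor) by 1.28 ± 0.28, Colec12 (a scavenger receptor with a collectin domain) by 1.10 ± 0.33 and Siglec1 (a sialic acid binding lectin) by 1.10 ± 0.36. The lectins Mgl2, Clec10a, Cd209b, Clec4n and Cd209g fell by 1.31, 1.24, 1.14, 0.87 and 0.76. Of the remaining calls, Cd38 (an enzyme that consumes NAD) fell by 1.46 ± 0.26, Slc40a1 (ferroportin, the iron exporter) by 1.34 ± 0.35, Dab2 by 1.14 ± 0.23, Tgfbi (a matrix protein) by 1.04 ± 0.24 and Fcna (a ficolin) by 0.80 ± 0.25. Adjusted p for these 14 ran from 0.0027 for Cd38 to 0.093 for Cd209g.

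For Stab1 and Cd38, as for Lyve1, the 8 transgenic libraries did not overlap the 8 others. Stab1 measured 93.6 to 218 CPM (median 156) with the transgenes and 218 to 577 CPM (median 305) without, so that its separation rests on a gap smaller than the rounding of these values. Cd38 measured 7.55 to 20 CPM (median 15.4) against 21 to 59.3 CPM (median 41.9). The other 13 of the 27 did not pass, among them Ms4a7 at -0.39 ± 0.31 (adjusted p = 0.477), Folr2 at -0.34 ± 0.32 (adjusted p = 0.555), Maf at -0.62 ± 0.32 (adjusted p = 0.256) and Hpgd, the 1 gene above 0, at 0.11 ± 0.22 (adjusted p = 0.799). In the single comparisons Cd38 was called in 5xFAD against WT, and Cd38 and Cd209b in Card9-/-5xFAD against Card9-/-. Of 7 MHC class II genes that mark a subset of border macrophages, 2 were matched by symbol. Ciita, the class II transactivator, fell by 1.33 ± 0.24 on average (adjusted p = 0.00265). Cd74, the invariant chain, had -0.08 ± 0.29 (adjusted p = 0.89). The symbols of the others hold a hyphen and found no match, so their levels are not known here.

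**Figure D5:**
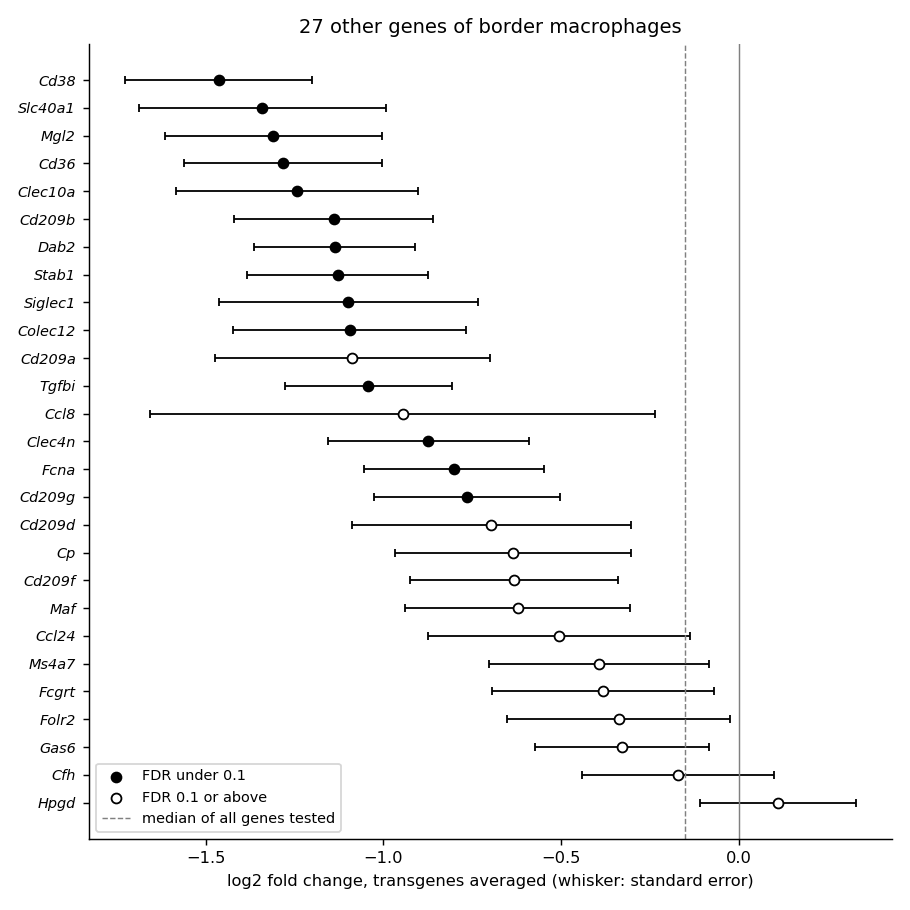
Log2 fold changes with transgenes averaged (horizontal axis) of 27 other border macrophage genes, ordered by size, with standard errors as whiskers; filled points had an FDR under 0.1, and the dashed line is the median of all genes tested. The 14 filled points run from -1.46 for Cd38 to -0.76 for Cd209g, and Hpgd is the 1 gene above 0.

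Markers of other cells were read in the same averaged comparison, in which 831 of all 14513 genes (5.73%) were called lower and 816 higher. Of 13 microglia markers, 0 were called by edgeR (2 had an unadjusted p under 0.05, and DESeq2 called 2, Sall1 and Sparc), the median log2 fold change was -0.12, and their sum was 17864 to 42753 CPM with the transgenes and 19762 to 45998 CPM without, led by Sparc. Of 11 monocyte markers tested (12 listed), 4 were called, all lower (Nr4a1, Cd300e, Ccr2 and Gpr141), with a median of -0.86 and sums of 113 to 305 CPM with and 245 to 464 CPM without the transgenes. Of 9 neutrophil markers, 3 were called lower (Mmp8, Ly6g and Cxcr2; median -0.84), with sums of 497 to 5991 CPM and 1109 to 6325 CPM. Of 7 dendritic cell markers tested (8 listed), 5 were called lower (Itgae, Irf4, Zbtb46, Ccr7 and Cd24a; median -0.89), with sums of 22.5 to 42 CPM and 32 to 57.9 CPM. Some genes on the monocyte, neutrophil and dendritic cell lists were thus also lower with the transgenes. Within genotypes, r of Mrc1, Cd163, Lyve1 and F13a1 with the monocyte sum was -0.101, -0.341, -0.414 and -0.175. With the neutrophil sum it was 0.049, -0.327, -0.161 and -0.044, and with the dendritic cell sum 0.213, -0.062, -0.281 and 0.03. With the sum of the 27 other border macrophage genes it was 0.683, 0.699, 0.199 and 0.641. Pf4 and Cbr2 ran against that sum, at r = -0.512 and -0.429. The highest r of Lyve1 with any list was 0.681, with the oligodendrocyte sum. The part of monocytes, neutrophils and dendritic cells in the result was not tested. In the lists of vessel and glial cells, Pecam1 was called lower (1 of 8 blood endothelial markers), Pdgfrb lower (1 of 3 mural markers tested) and Gfap and Aqp4 higher (2 of 7 astrocyte markers). Lists of fibroblasts (2 tested), T or NK cells (6), B cells (3), neurons (3), oligodendrocytes (5) and immediate early genes (12) had 0 called by edgeR and 0 by DESeq2. Among them 1 neuronal marker and 2 immediate early genes had an unadjusted p under 0.05. Their median log2 fold changes were -0.68, -0.37, -0.05, -0.98, -0.36 and -0.13, in that order. Lists this small cannot show that a cell type was unchanged. Of 5 red blood cell markers, Alas2 was the 1 matched by symbol, at 0 to 0.772 CPM, and it was not tested. The haemoglobin genes, whose symbols hold a hyphen, found no match. Other spellings of them were not looked up, so their levels are not known here.

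Pf4 and Lyve1 are also known from cells outside the macrophages. Of 11 platelet and megakaryocyte markers, 4 had enough counts to be tested, Gp1bb and Gp6 were at 0 in every library, 0 were called by edgeR or DESeq2 and 0 had an unadjusted p under 0.05, and the sum (led by Gp9) was 50 to 193 CPM with the transgenes and 48.2 to 269 CPM without. Within genotypes the r of Pf4 with that sum was 0.919, over 16 libraries that also share the length slope. It was about as high with the sums of astrocyte (0.904), blood endothelial (0.902), neuron (0.879), fibroblast (0.873), neutrophil (0.853) and choroid plexus or ependymal (0.807) markers, so it was not particular to the platelet list. Their part in the Pf4 levels was not tested. Of 5 lymphatic endothelial markers, 1 (Prox1) had enough counts to be tested, Mmrn1 was at 0 in every library, and the sum was 4.09 to 10.8 CPM with and 3.94 to 18.6 CPM without the transgenes. Prox1 had a log2 fold change of -0.47 and was not called, and r of Lyve1 with that sum was -0.24. Of 9 choroid plexus and ependymal markers 7 were tested and 0 were called by edgeR or DESeq2 or had an unadjusted p under 0.05, although their sum ran from 4.84 to 2517 CPM between libraries, led by Ttr.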

How the data were processed

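RNA-seq reads from 16 libraries of CD11b-sorted mouse brain cells were aligned by the authors with HISAT2 to mm10, filtered with Samtools and counted per gene with HTSeq. The deposited values are raw counts; tool versions, the gene annotation and the strand setting of the counting are not given in the sources used here, and 0 of the columns were without a sample. The 6 members, the gene lists and the tests were chosen with earlier results of these data known.

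The counts were scaled by TMM, filtered with filterByExpr (minimum count 10) and fitted over all 4 genotypes with edgeR 4.0.16 (glmQLFit and glmQLFTest, R 4.3.3). Benjamini-Hochberg adjustment ran over the 14513 genes tested, with FDR 0.1 as the threshold. DESeq2 1.42.0, sva 3.50.0 (1 surrogate variable), other filters and scalings, a replicate block and the removal of each library were alternatives. The fits were tested on simulated data. Likeness used log2 CPM with a prior count of 2 after subtraction of genotype means. Named genes were the members, Card9, called genes of the border macrophage lists, the gene of highest mean CPM and those at 0 in each other list, the 10 genes of highest r to the mean of the members and the 3 to each; other genes named from the lists were chosen after their values were seen. A monocyte marker is not reported here and was left out of its list.

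Exon lengths and positions came from GENCODE M21 (48481 of 55385 symbols matched; 93.3% of the genes tested had a length), and promoter sequences from RefSeq, which held 5 of 6 members (Lyve1 was the other). Same-numbered libraries deviated together in 5xFAD and WT (r from 0.275 to 0.708) and in Card9-/-5xFAD and Card9-/- (0.128 to 0.734), over genes, so the numbers pair those samples by the data and not by a label. Across Card9 genotypes they did not (-0.545 to 0.488 and -0.637 to 0.256). No library was a copy of another: over 24 pairs of 1 genotype, the lowest chi-square per degree of freedom was 6.92.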

Additional observations from a re-analysis of the deposited data

Results flagged for a closer look

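In 4 of the 24 groups of 4 libraries (6 genes by 4 genotypes), 1 library lay far from the other 3 relative to the range of its group. Chance alone flags about 1 in 20 groups. Cd163 was 76.3 CPM in WT replicate 4, with the other WT libraries at 36.8 to 39.2. F13a1 was 115 CPM in 5xFAD replicate 4, with the others at 43.9 to 48.3. Both are libraries with a length slope above 0 (0.147 and 0.0699), the highest slope of their genotypes. Pf4 was 759 CPM in WT replicate 1, with the others at 242 to 287, and 1053 CPM in Card9-/- replicate 4, with the others at 111 to 225. Those libraries had the lowest microglia marker sum of their genotype (19762 and 20213 CPM). The part of the slope or of the microglia sum in these values was not tested.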

How the results depend on the processing

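The averaged transgene comparison called Mrc1, Cd163, Lyve1 and F13a1 under each of the alternatives run, and members were called 0 times in the Card9 comparisons and the interaction under each. The calls in a single Card9 genotype depended on the setting. Members called in 5xFAD against WT (3) became 0 without a filter on low counts and with edgeR on only the groups compared, 6 with 1 surrogate variable or the length slope, 5 with the replicate block within Card9 genotype, and 0 to 3 with 1 library left out. Members called in Card9-/-5xFAD against Card9-/- (1) became 0 without a filter and with edgeR on only the groups compared, 3 with DESeq2 on all libraries, 2 with the replicate block and with DESeq2 on the 2 groups alone, 5 with 1 surrogate variable, 3 in the 12 libraries, 4 with the replicate block within Card9 genotype, and 0 to 2 with 1 library left out. The 4 members called for any difference became 2 without a filter and at FDR 0.05, and 2 to 4 with 1 library left out. The slope, 12-library and within-genotype block fits were chosen after seeing the data. The cause of these changes was not tested. A fit on only the groups compared gives no averaged, interaction or overall value, and the block within Card9 genotype gives no Card9 value.

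Genes called in all moved further. In 5xFAD against WT (304) they were 171 under a minimum of 10 counts per library, 565 and 669 with DESeq2 on all libraries and on only the groups compared, 1251 with 1 surrogate variable, 916 with the length slope, 1144 in the 12 libraries, 2322 with the replicate block within Card9 genotype and 164 to 386 with 1 library left out. For Card9-/-5xFAD against Card9-/- (286) they were 185 without a filter, 148 under that minimum, 812 and 433 with DESeq2, 96 with edgeR on only the groups compared, 162 at FDR 0.05, 1810 with 1 surrogate variable, 845 with the slope, 2394 in the 12 libraries, 2966 with the block within Card9 genotype and 120 to 720 with 1 library left out. With transgenes averaged (1647) they were 1070 without a filter, 920 at FDR 0.05, 4576 with 1 surrogate variable, 3556 with the slope, 4948 in the 12 libraries, 6078 with the block within Card9 genotype and 955 to 3053 with 1 library left out. For any difference (652) they were 1782 with DESeq2, 3208 with 1 surrogate variable, 380 at FDR 0.05, 1950 with the slope, 3112 in the 12 libraries and 331 to 1091 with 1 library left out. With Card9 averaged (4) they were 2 with DESeq2 size factors and at FDR 0.05, 0 under that minimum, 106 with DESeq2, 75 with 1 surrogate variable, 7 with the slope and 0 to 8 with 1 library left out. In Card9-/- against WT (0) they were 2 without a filter and with 1 surrogate variable, 5 and 8 with DESeq2, 3 with the slope and 0 to 1 with 1 library left out. In Card9-/-5xFAD against 5xFAD (0) they were 1 without a filter and with 1 surrogate variable, 2 and 9 with DESeq2 and 0 to 1 with 1 library left out. For the interaction (0) they were 1 with DESeq2 and 0 to 1 with 1 library left out.

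Signs turned only for differences that did not pass. The Pf4 log2 fold change in Card9-/-5xFAD against Card9-/- (-0.03) became 0.012 with DESeq2 size factors, 0.007 and 0.015 with DESeq2 on all libraries and on the 2 groups alone, and 0.11 under a minimum of 10 counts per library, where that of Cbr2 (-0.11) became 0.092. In Card9-/- against WT that of Pf4 (0.05) became -0.048 without a filter, -0.05 under that minimum, -0.49 with the replicate block, -0.10 with 1 surrogate variable and -0.52 in the 12 libraries. For Card9-/-5xFAD against 5xFAD that of Pf4 (0.59) became -0.069, -0.19 and -0.45 with the replicate block, 1 surrogate variable and the 12 libraries, and with Card9 averaged (0.32) -0.28, -0.14 and -0.49. The Lyve1 difference with Card9 averaged (-0.04) became 0.012 with the slope. In the interaction, Cd163 (0.03) became -0.077 without a filter, -0.01 with the replicate block and -0.34 in the 12 libraries, Pf4 (0.54) -0.091 with 1 surrogate variable, and F13a1 (0.20) -0.057 in the 12 libraries. With 1 library left out, Pf4 ranged from -1.26 to 1.10 in Card9-/-5xFAD against Card9-/-, -1.09 to 0.60 in Card9-/- against WT, -0.65 to 0.89 in Card9-/-5xFAD against 5xFAD, -0.69 to 1.67 in the interaction, -0.91 to 0.27 with transgenes averaged and -0.30 to 0.59 with Card9 averaged. Cbr2 ranged from -0.41 to 0.11 in Card9-/-5xFAD against Card9-/- and -0.48 to 0.044 in Card9-/-5xFAD against 5xFAD, and Lyve1 from -0.037 to 0.37 in the latter and -0.20 to 0.042 with Card9 averaged. In the interaction, Mrc1 ranged from -0.28 to 0.015, Cd163 from -0.31 to 0.38 and F13a1 from -0.013 to 0.59.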
